A study of Drosophila simulans and Drosophila melanogaster and Drosophila sechellia with 48 samples.

Results

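Cross 61x77 of Drosophila simulans is a heterozygous genotype, made by crossing 2 isogenic lines, 61 and 77, and it was compared with the other crosses of the same species. Its 3 arrays were chosen by the cross named in their labels, out of 48 arrays in the series. Transcript abundance was measured in whole adult males of 7 species of the D. melanogaster subgroup, to follow how expression varies among and within species. D. simulans was represented by 10 crosses, made in a round-robin among 10 isogenic lines derived from a wild population at Winters, California, and each cross had 3 arrays. The other 6 species had 18 arrays, which were not used in the main comparison.

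The flies of cross 61x77 and of the other 9 crosses (6x11, 11x36, 36x37, 37x43, 43x61, 77x85, 85x99, 99x105 and 105x6) were handled alike. RNA came from 20 pooled males per array, taken 3 days after pupation, and the flies were raised on cornmeal medium with yeast at 25 °C in continuous light and knocked down by CO2. No cross received a treatment that another did not. A pool of males gives no value for a single fly, and the labels do not say which line was the mother. Because of the round-robin, line 61 was also a parent of cross 43x61 and line 77 a parent of cross 77x85. These 2 crosses therefore each shared 1 set of parental autosomes with 61x77, whereas the other 7 crosses shared none. The labels do not settle whether 43x61 or 77x85 also shared its X chromosome with 61x77. The third array of cross 37x43 was left out, because eggshell and other female genes stood high on it, so that the other crosses gave 26 arrays. The labels number the arrays of a cross as replicates without saying whether they came from separate cultures, so the p-values measure only the spread between these arrays, which may be technical.

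A cross between isogenic lines carries 1 copy of each autosome from either line, and the males of a cross are genetically alike. Differences in transcript abundance between such crosses can come from differences in sequence near a gene or elsewhere in the genome, and among Drosophila lines they are often seen in genes of detoxification, immunity and male reproduction. The cytochrome P450 enzymes oxidise steroids, fatty acids, plant compounds and insecticides. The Bomanins are short secreted peptides that, in D. melanogaster, are switched on by the Toll pathway during infection. Accessory gland proteins are made in the male reproductive tract and pass to the female in the seminal fluid.

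All levels below are log2 values of the deposited signal after quantile normalization over the 29 arrays, and a difference of 1 is a 2-fold change. Each difference is cross 61x77 minus the equal mean of the other 9 crosses, given with its standard error from limma, and adjusted p-values are Benjamini-Hochberg values taken over 12367 features (probe sets, 1 for each gene). Levels of different probe sets were not compared with each other. The sex of the samples was checked first. The 17 yolk, eggshell and oocyte markers averaged 6.66 to 7.40 on the arrays of 61x77 and 6.56 to 7.44 (median 7.02) on the other 26 arrays, below the mean of 7.83 over all features. The 12 markers of the male reproductive tract averaged 9.65 to 10.17 in 61x77 and 8.86 to 10.66 in the other crosses, and the 11 markers of the male germline averaged 11.56 to 11.95 and 11.29 to 12.25. The 61x77 arrays lay within the range of the others for all 3 marker sets, and the correlation between its replicates across features was 0.877 to 0.909. It was lowest in crosses 99x105 (0.776 to 0.85) and 6x11 (0.812 to 0.849), which stood apart from the rest and had the most calls when each cross was set against the others (364 and 145).

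Cross 61x77 differed from the other crosses at 25 of the 12367 features (0.202%) at an adjusted p of at most 0.05. Of these, 7 were higher (0.0566%) and 18 were lower (0.146%). The 7 higher features were between 2.09-fold and 2.91-fold higher, and included 4 cytochrome P450 genes, Cyp6a8, Cyp6a2, Cyp313a1 and Cyp6d5, the seminal fluid gene Acp26Ab, and CG14034. The lower features included the Bomanins BomS4, which was 5.39-fold lower, and BomS2, whose signal in 61x77 was dim and whose difference of -3.58 lay between -4.48 and -2.91 when 1 array of 61x77 was left out, and the testis tubulin gene betaTub85D, which was 2.83-fold lower. Cross 61x77 had the highest mean of all 10 crosses in 6 of the 7 higher features, and the lowest mean in 16 of the 18 lower features. The median difference over all features was 0.02, and 864 features (6.99%) had an unadjusted p below 0.05, 327 of them higher (2.64%) and 537 lower (4.34%).

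**Figure D1:**
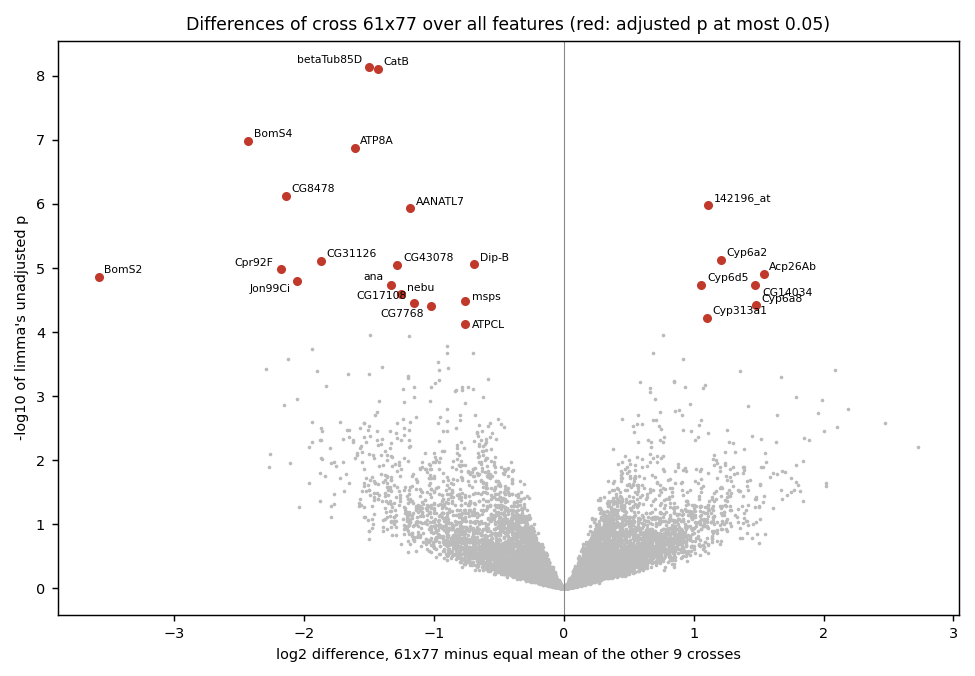
Difference of cross 61x77 from the equal mean of the other 9 crosses (x axis, log2 scale) against the negative log10 of limma's unadjusted p (y axis), with 1 point for each of 12367 features. The 25 features in red passed an adjusted p of 0.05, 18 of them on the lower side and 7 on the higher side.

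The same contrast gave between 1 call (crosses 11x36 and 85x99) and 364 calls (cross 99x105) when it was made for each of the other crosses in turn, and 3 calls for 43x61 and 21 for 77x85. In 61x77, all 3 arrays lay above all 26 other arrays at 11 features (0.0889%), and below all of them at 13 features (0.105%). Among the called features, 2 of the 7 higher and 9 of the 18 lower ones were separated in this way. The rest overlapped with at least 1 array of another cross.

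Of the cytochrome P450 genes, 83 were measured, 4 were higher (4.82%, against 0.0566% of all features) and none was lower. At an unadjusted p below 0.05, 13 were higher (against 2.64% of all features) and 3 were lower (against 4.34%), and the median difference of the 83 genes was 0.10. Cyp6a2, an enzyme known in D. melanogaster for metabolising DDT, had log2 signals of 11.47, 11.23 and 11.61 in 61x77, against a lowest of 8.83, a median of 10.32 and a highest of 11.19 in the other crosses. Every array of 61x77 was thus above every other array, by a difference of 1.21 ± 0.21 (adjusted p = 0.0101, limma). Cyp6a8, a gene of the same subfamily that is also studied in insecticide resistance, had 12.46, 12.49 and 12.15 in 61x77 and 9.71, 10.88 and 12.49 as the lowest, median and highest of the other arrays. Its difference was 1.48 ± 0.29 (adjusted p = 0.0211), and the groups overlapped only through 2 of the 3 arrays of cross 77x85, which had 12.12, 12.49 and 12.29.

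Cyp6d5 had 13.83, 13.57 and 14.36 in 61x77, and 11.84, 12.96 and 13.76 as the lowest, median and highest of the other arrays. It differed by 1.06 ± 0.19 (adjusted p = 0.0128), and 2 arrays of 61x77 were above every other array. Cyp313a1 gave 10.96, 11.64 and 11.58 in 61x77, against 8.80, 10.34 and 11.25 as the lowest, median and highest elsewhere, a difference of 1.10 ± 0.22 (adjusted p = 0.0312). In this gene, too, 2 arrays of 61x77 were above every other array. It was the only 1 of 6 measured Cyp313 genes that passed, and the other 5 had differences between -0.95 and 0.13. These calls were sensitive to single arrays of 61x77, and all 4 were lost in the fit over all 48 arrays (adjusted p = 0.454 for Cyp6a2, 0.0865 for Cyp6a8, 0.477 for Cyp6d5 and 0.642 for Cyp313a1). Without its replicate 1 the adjusted p was 0.107 for Cyp6a2, 0.221 for Cyp6a8, 0.107 for Cyp6d5 and 0.0639 for Cyp313a1. Without replicate 2 it was 0.048, 0.175, 0.0391 and 0.265 in the same order of genes, and without replicate 3 it was 0.0784, 0.0668, 0.158 and 0.165.

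**Figure D2:**
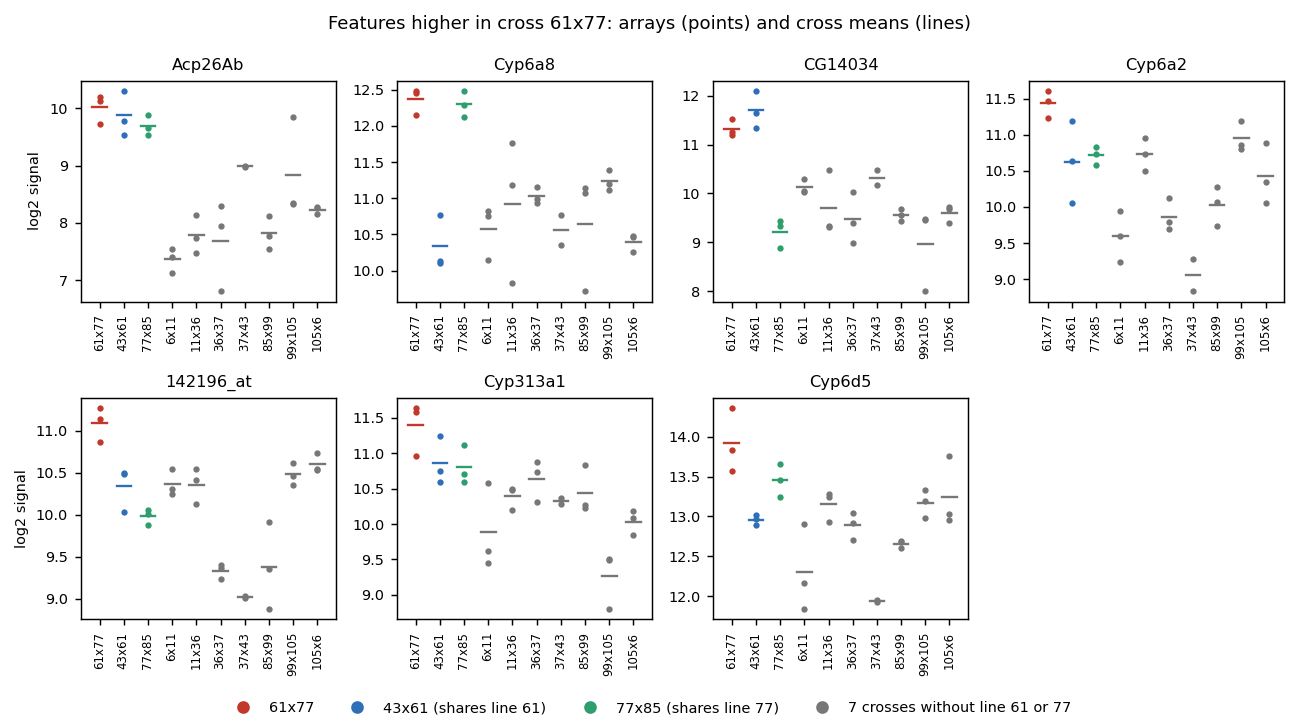
Log2 signal (y axis) of the 7 features that were higher in cross 61x77, by cross (x axis), with 1 point for each array and a line at each cross mean. Cross 61x77 is in red, 43x61 (which shares line 61) in blue, 77x85 (which shares line 77) in green, and the other 7 crosses in grey. Acp26Ab is high in all 3 coloured crosses, Cyp6a8 in 61x77 and 77x85, and CG14034 in 61x77 and 43x61.

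Within the Cyp6 family, to which 3 of the 4 P450 genes belong, 23 genes were measured. Their median difference was 0.34, against 0.02 over all features, and 19 of them were above 0. The lowest was Cyp6d2, with 4.85, 5.41 and 4.93 in 61x77, and 2.72, 7 and 8.52 as the lowest, median and highest elsewhere. Only 1 array of another cross lay below the values of 61x77, and 25 lay above all of them. The mean of 5.06 in 61x77 was the lowest of all crosses, but the difference of -1.77 ± 0.63 did not pass (adjusted p = 0.467). Cyp6g1, known in D. melanogaster for DDT resistance, had 12.66, 12.85 and 12.94 in 61x77 and a median of 12.65 elsewhere, with a difference of 0.30 ± 0.22 (adjusted p = 0.881). The family was chosen after its members were seen among the calls, so its count is a description. Cyp4ac1 and Cyp4ac2, neighbouring P450 genes, had differences of 0.61 ± 0.46 and 0.23 ± 0.26 (adjusted p = 0.884 and 0.926), and Cyp4ac3, the other measured gene of that subfamily, had -0.46 ± 0.40 (adjusted p = 0.903). Cyp4ac2 gave 8.83, 9.03 and 8.61 in 61x77, within the range of 7.10 to 9.22 in the other crosses.

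The glutathione and UDP-glycosyl transferases, which conjugate the products of P450 enzymes, had no called member among 67. At an unadjusted p below 0.05, 6 were higher (against 2.64% of all features) and 5 lower (against 4.34%), and the median difference was 0.05. GstD1, which had the highest mean signal of the list, gave 13.86, 14.25 and 13.91 in 61x77 and a median of 13.95 elsewhere (difference 0.06 ± 0.18, adjusted p = 0.980). GstS1 had 12.52, 12.83 and 13.07 against a median of 13.08 (difference -0.26 ± 0.14, adjusted p = 0.777). The GstD genes, a cluster of glutathione transferases examined after the calls were known, had a median difference of 0.47 over 11 genes, of which 10 were above 0. Their differences ran between -0.63 (GstD3) and 1.38 (GstD10), with adjusted p = 0.305 and 0.512.

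Among 29 accessory gland and ejaculatory genes, 1 was higher (3.45%, against 0.0566% of all features) and none was lower, and their median difference was 0.22. The called gene was Acp26Ab. It had 10.13, 9.72 and 10.20 in 61x77, and 6.80, 8.26 and 10.31 as the lowest, median and highest of the other arrays, a difference of 1.54 ± 0.27 (adjusted p = 0.0116). Only 1 array of another cross was above all those of 61x77, and it belonged to 43x61. The neighbour of Acp26Ab, Acp26Aa, encodes ovulin, a seminal peptide that stimulates ovulation in D. melanogaster. Acp26Aa had 0.72, 5.28 and 3.20 in 61x77 and a median of 3.48 elsewhere (difference -0.65 ± 0.97, adjusted p = 0.949). Its signal was dim in all 10 crosses, with means between 2.62 and 4.81, so little can be read from its difference. Of the 29 genes, 19 had a difference above 0. Since whole males were used, fewer cells of a type and less RNA in each cell cannot be told apart here or in the results that follow. Acp26Ab had an adjusted p of 0.151, 0.0503 and 0.098 without replicates 1, 2 and 3 of 61x77.

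The other 2 higher features had no assigned role here. CG14034 had 11.19, 11.26 and 11.53 in 61x77, against 7.99, 9.62 and 12.11 as the lowest, median and highest elsewhere, a difference of 1.47 ± 0.27 (adjusted p = 0.0128). All 3 of its values in 61x77 lay among those of cross 43x61 or below them, and above those of the 8 remaining crosses. The probe set 142196_at, which carries no gene name, had 10.87, 11.27 and 11.14 in 61x77 and 8.88, 10.19 and 10.73 elsewhere, so that no array overlapped, and differed by 1.11 ± 0.16 (adjusted p = 0.00207). Without replicates 1, 2 and 3 of 61x77 the adjusted p was 0.107, 0.095 and 0.106 for CG14034, and 0.012, 0.0503 and 0.0189 for 142196_at.

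The immune genes lower in 61x77 were both Bomanins. Of 44 antimicrobial and immune genes, none was higher and 2 were lower (4.55%, against 0.146% of all features), and their median difference was -0.10. BomS4 had 7.17, 7.57 and 7.33 in 61x77, and 7.30, 9.96 and 14.35 as the lowest, median and highest of the other arrays. Its difference was -2.43 ± 0.31 (adjusted p = 0.00041), and its lowest values outside 61x77 were in crosses 43x61 (7.30, 7.33 and 7.67) and 77x85 (7.69, 8.26 and 7.48). The lowest mean among the 7 crosses without line 61 or 77 was 9.21. BomS2 had 3.08, 3.93 and 6.24 in 61x77, against 3.14, 8.32 and 12.05 as the lowest, median and highest elsewhere, a difference of -3.58 ± 0.64 (adjusted p = 0.0121). Its lowest value in another cross was an array of 77x85.

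The highest values of both genes outside 61x77 were in cross 99x105, which averaged 13.21 for BomS4 and 10.61 for BomS2. Without crosses 6x11 and 99x105, an alternative added after seeing the data, BomS4 differed by -1.94 (adjusted p = 0.00229) and BomS2 by -3.10 (adjusted p = 0.0613), so that BomS2 no longer passed. BomS2 also failed without replicates 1 and 2 of 61x77 (adjusted p = 0.279 and 0.128), whereas BomS4 passed without each array in turn. In the family, all 8 measured Bomanins were below 0, with a median of -0.49. Cross 99x105 had the highest mean of the 10 crosses in each of them, which lowers these differences. Counted from the lowest mean, 61x77 ranked 5 of 10 for BomT3, BomT2 and BomS5, 4 for BomBc2 and 3 for BomBc3. The 6 that were not called had differences between -0.67 (BomS6, adjusted p = 0.311) and -0.10 (BomT3, adjusted p = 0.976). The 8 classical antimicrobial peptide genes, such as drosomycin (Drs) and metchnikowin (Mtk), had a median difference of 0.03 and none was called. Drs gave 8.10, 7.92 and 8.20 in 61x77 and a median of 8.08 elsewhere, and Mtk gave 6.98, 7.41 and 8.24 with a median of 6.08 elsewhere. Both families were examined after the calls were seen.

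**Figure D3:**
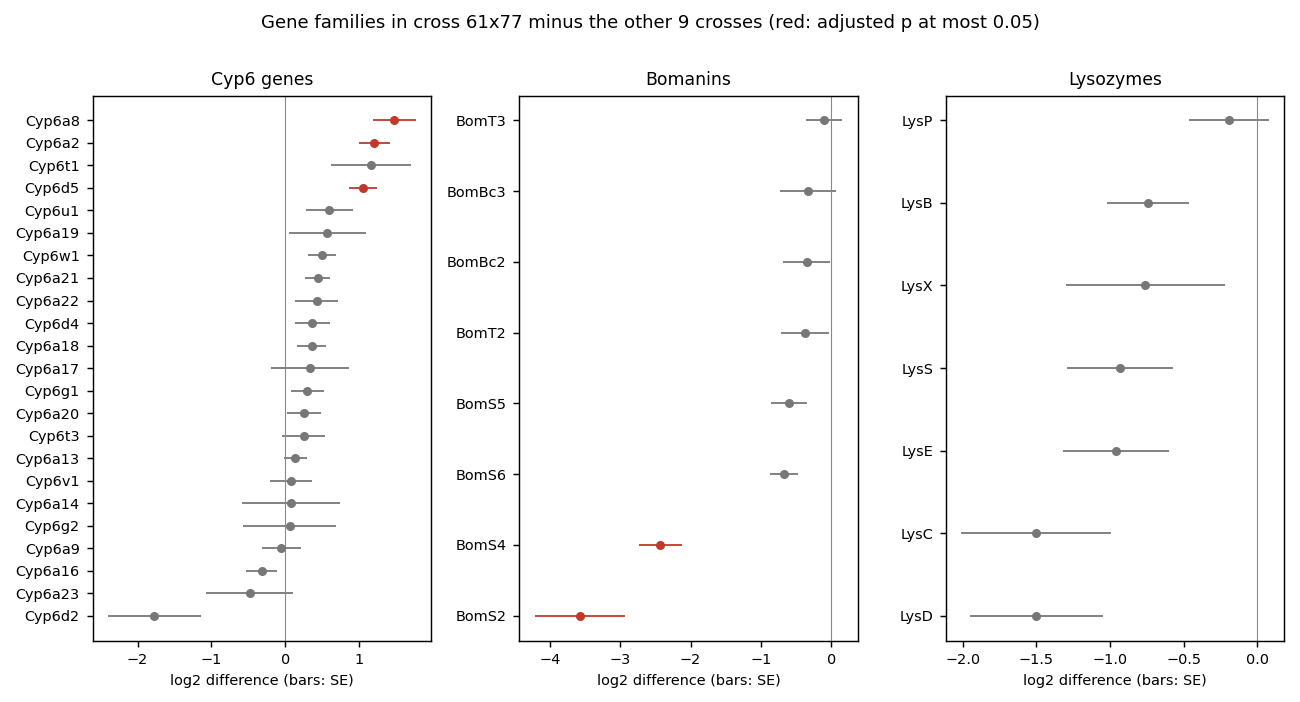
Difference of cross 61x77 from the equal mean of the other 9 crosses (x axis, log2 scale, bars show the standard error) for 23 Cyp6 genes, 8 Bomanins and 7 lysozymes (y axis). Red points passed an adjusted p of 0.05. The 3 red Cyp6 genes lie above 1, and the 2 red Bomanins lie below -2, apart from the remaining 6.

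The lysozymes, which degrade bacterial walls and in D. melanogaster are largely digestive enzymes of the gut, were all below 0 in 61x77. Their median difference was -0.93 over 7 genes and 5 had an unadjusted p below 0.05 (against 4.34% of all features on the lower side), but none passed after adjustment. LysD had 12.06, 13.15 and 11.78 in 61x77 and a median of 13.82 elsewhere (difference -1.50 ± 0.45, adjusted p = 0.299), and LysB had 13.77, 13.69 and 13.29 against a median of 14.31 (difference -0.74 ± 0.28, adjusted p = 0.497). Cross 43x61, which shares line 61, was about as low, with means of 12.59 for LysD and 13.64 for LysB, against 12.33 and 13.59 in 61x77. Cross 77x85 had means of 14.08 and 14.44, and cross 11x36, which shares neither line, had 12.91 and 13.71. The probe sets of LysB, LysC, LysD and LysE are marked by the manufacturer as matching several genes, so these 4 genes are not separate measurements. Of 43 digestive enzymes, 1 was lower (2.33%, against 0.146% of all features), and the median difference was -0.10. It was Jon99Ci, a serine protease of the Jonah family of the gut, with 4.98, 7.46 and 7.02 in 61x77 and 7.33, 8.57 and 9.59 elsewhere. It differed by -2.05 ± 0.37 (adjusted p = 0.0128), though 1 of its 3 values was inside the range of the others, and without replicate 1 it did not pass (difference -1.30, adjusted p = 0.319). In the 13 other Jonah genes measured the differences lay between -1.42 and 0.62, and none was called.

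Among 54 testis and sperm genes, none was higher and 1 was lower (1.85%, against 0.146% of all features), and the median difference was 0.10. The called gene was betaTub85D, the testis-specific beta-tubulin, which in D. melanogaster is needed for male meiosis and for the sperm tail. It had 8.17, 8.38 and 7.88 in 61x77, against 8.68, 9.72 and 10.38 as the lowest, median and highest elsewhere. All arrays of 61x77 were below all others, the difference was -1.50 ± 0.16 (adjusted p = 4.8e-05), and it passed without each array in turn. The lowest values in another cross were those of 77x85, with 8.68, 8.84 and 8.78. The 4 other beta-tubulin genes had differences between -0.57 (betaTub65B, adjusted p = 0.532) and 0.21, and none was called. Of the 11 male germline markers described above, betaTub85D was the only 1 called, and 5 had a difference above 0.

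Several lower genes had low values in all 3 arrays with little spread. CatB had 9.44, 9.04 and 9.61 in 61x77, and 10.11, 10.84 and 11.44 as the lowest, median and highest elsewhere, a difference of -1.43 ± 0.16 (adjusted p = 4.8e-05). ATP8A, a P4-type ATPase that flips phospholipids across membranes, had 8.33, 8.22 and 8.21 in 61x77, against 9.07, 9.97 and 10.55 elsewhere, a difference of -1.61 ± 0.21 (adjusted p = 0.00041). In both genes every array of 61x77 was below every other array, and the calls held without each array in turn. AANATL7, an arylalkylamine N-acetyltransferase-like gene outside the naming rule, chosen after its values were seen, had 7.81, 7.86 and 7.99 in 61x77 and 8.39, 9.08 and 9.72 elsewhere, again with no overlap (difference -1.18 ± 0.18, adjusted p = 0.00207). The 4 other measured AANATL genes had differences between -0.22 and 0.54. With betaTub85D and BomS4, these were the 5 of 25 features that passed without any one array of 61x77.

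**Figure D4:**
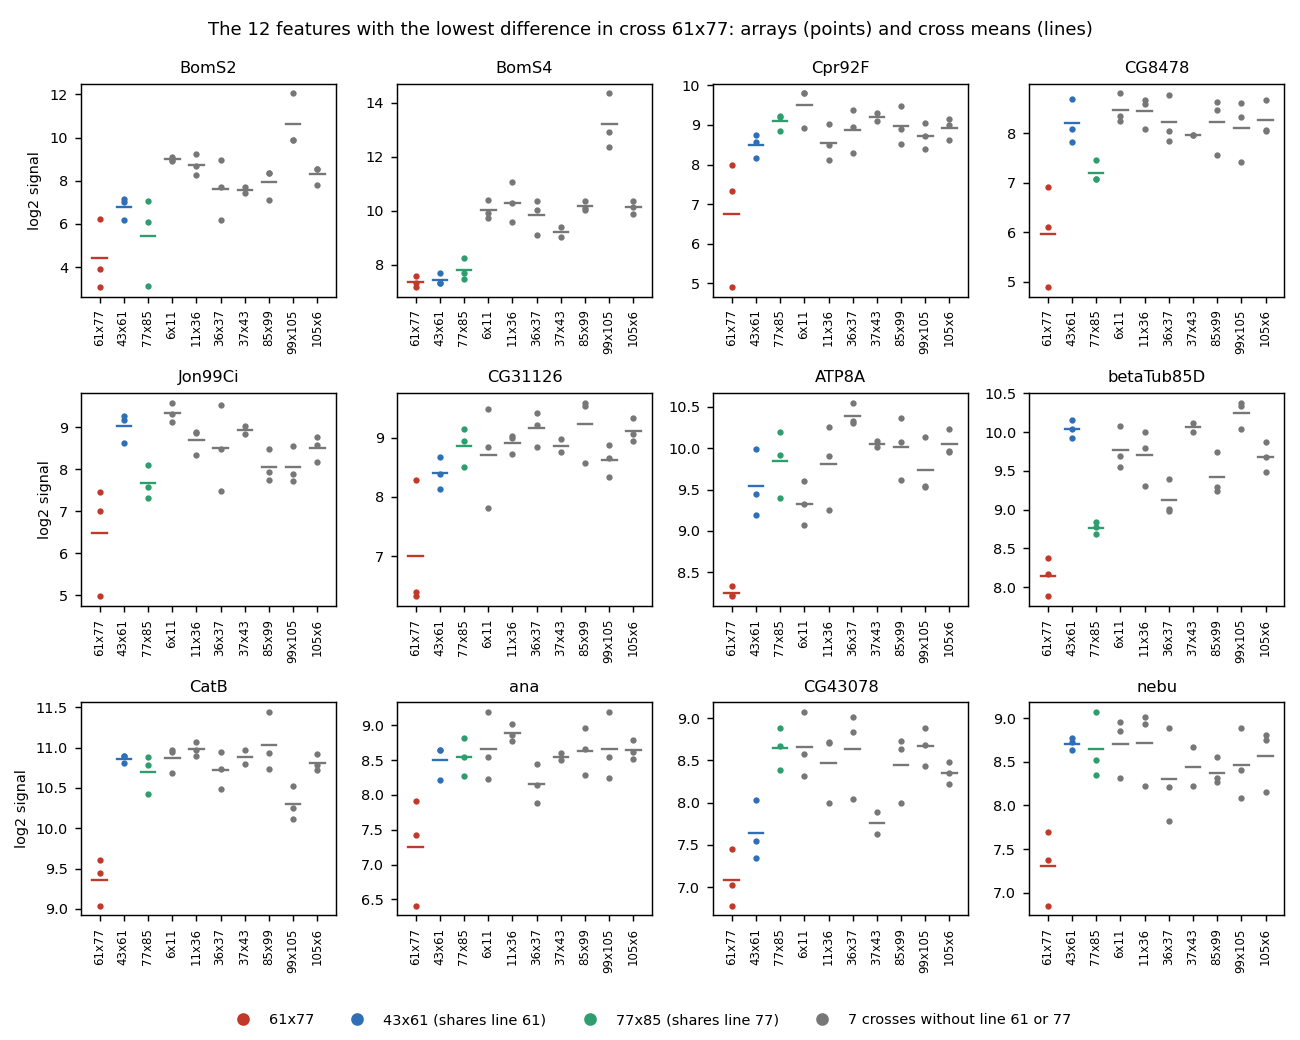
Log2 signal (y axis) of the 12 features with the lowest difference among those lower in cross 61x77, by cross (x axis), with 1 point for each array and a line at each cross mean. Colours mark 61x77 (red), 43x61 (blue), 77x85 (green) and the other 7 crosses (grey). BomS4 is low in all 3 coloured crosses, and for CatB and ATP8A the 3 points of 61x77 lie below all others.

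In other lower genes the arrays of 61x77 differed more among themselves. Cpr92F, a cuticle protein with a chitin-binding domain, had 7.33, 7.99 and 4.91 in 61x77, all below the lowest of 8.12 elsewhere (median 8.94), and differed by -2.18 ± 0.38 (adjusted p = 0.0109). It was the only 1 of 98 cuticle protein genes called in either direction (1.02% lower, against 0.146% of all features), and without replicate 3 its difference was -1.26 (adjusted p = 0.102). CG8478 had 6.10, 4.90 and 6.92 in 61x77 and at least 7.07 elsewhere (median 8.09, difference -2.14 ± 0.31, adjusted p = 0.00183). Without replicate 2 it differed by -1.61 (adjusted p = 0.0532), and its lowest mean in another cross was 7.20, in 77x85. CG31126 had 6.32, 6.39 and 8.29 in 61x77, the last inside the range of 7.81 to 9.59 elsewhere (difference -1.87 ± 0.32, adjusted p = 0.0101), and it did not pass without replicates 1 and 2 (adjusted p = 0.207 and 0.147). The spread of these genes within 61x77 came with SDs of 1.62, 1.02 and 1.12, against 0.07 for ATP8A.

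The gene ana (anachronism), which in D. melanogaster larvae encodes a secreted glycoprotein that holds neuroblasts in quiescence, had 6.41, 7.43 and 7.92 in 61x77 and 7.88, 8.58 and 9.19 as the lowest, median and highest elsewhere. It differed by -1.33 ± 0.24 (adjusted p = 0.0128), and without replicates 1 and 2 of 61x77 the adjusted p was 0.34 and 0.0763. CG43078 had 6.78, 7.45 and 7.03 in 61x77, against 7.35, 8.45 and 9.07 as the lowest, median and highest elsewhere, a difference of -1.28 ± 0.22 (adjusted p = 0.0101). The lowest of these other arrays belonged to 43x61. A second probe set of CG43078 differed by only -0.07 ± 0.26 (adjusted p = 0.989), so that the probe sets of this gene disagreed, and no other called gene had a second probe set. The gene nebu had 7.37, 7.69 and 6.85 in 61x77, all below the lowest of 7.82 elsewhere (difference -1.25 ± 0.23, adjusted p = 0.0169). Without replicates 1 and 3 the adjusted p was 0.196 and 0.0661 for CG43078, and 0.151 and 0.165 for nebu.

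The remaining lower genes were named after their values were seen. Of these, 2 encode enzymes of intermediary metabolism and peptide breakdown. ATPCL, the ATP citrate lyase that supplies acetyl-CoA for lipid synthesis, differed by -0.76 ± 0.16 (adjusted p = 0.0372), and Dip-B, a dipeptidase, had 9.70, 9.72 and 9.66 in 61x77, all below the lowest of 9.99 elsewhere (difference -0.69 ± 0.12, adjusted p = 0.0101). The microtubule polymerase gene msps (mini spindles) had 9.78, 10.03 and 9.91 in 61x77, all below the lowest of 10.14 elsewhere, and differed by -0.76 ± 0.15 (adjusted p = 0.0205). CG17108 had 12.30, 12.05 and 12.57 in 61x77, inside the range of 11.82 to 15.03 elsewhere (difference -1.15 ± 0.22, adjusted p = 0.0205). CG7768 had 9.01, 8.29 and 8.90 in 61x77 and differed by -1.02 (adjusted p = 0.0211). Its mean of 8.73 in 61x77 was close to the 8.71 of cross 105x6, which shares neither line. None of these 5 genes passed when any 1 array of 61x77 was left out. CG17108 differed by -0.83 (adjusted p = 0.114) without crosses 6x11 and 99x105.

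Setting 61x77 against the 7 crosses that share neither parent gave 10 higher (0.0809%) and 20 lower (0.162%) features. Of the 25 features called against all 9 crosses, 24 were also called here. The exception was ATPCL, and 6 others were called against the 7 crosses only. They were SPARC (an extracellular collagen-binding protein, difference 0.86, adjusted p = 0.0165), Usp20-33 (a ubiquitin protease, 1.01, 0.0459), cathD (the lysosomal protease cathepsin D, 0.71, 0.0427), Act88F (the actin of the indirect flight muscle, -1.43, 0.041), clt (cricklet, an esterase, -0.98, 0.041) and the unnamed probe set 151211_at (-1.05, 0.0325). Act88F had 12.10, 12.13 and 11.97 in 61x77 and a median of 13.37 over all 26 other arrays, inside their range of 11.80 to 14.13. Its mean was 12.07 in 61x77 and 12.17 in 43x61. For cathD the mean was 12.47 in 61x77 and 12.55 in 77x85, where the gene was also called against the 7 crosses (0.79, adjusted p = 0.0192). Usp20-33 had means of 10.12 in 61x77, 9.93 in 43x61 and 9.94 in 37x43, which shares neither line. Against 43x61 and 77x85 together no feature was higher (0%) and 4 were lower (0.0323%) in limma, with 640 features at an unadjusted p below 0.05. The 4 were betaTub85D (-1.26 ± 0.19, adjusted p = 0.00794), AANATL7 (-1.28 ± 0.20, 0.0122), CatB (-1.41 ± 0.18, 0.00137) and ATP8A (-1.44 ± 0.24, 0.0198).

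The crosses that share a line were then set beside 61x77, each against the same 7 crosses. The 3 contrasts share those 7 crosses, so their values are given side by side only. Across all features 8 were called for 43x61 (0.0647%) and 24 for 77x85 (0.194%). Acp26Ab, BomS4 and CG17108 had similar differences in all 3 crosses. For Acp26Ab these were 1.92 ± 0.28 in 61x77, 1.78 ± 0.28 in 43x61 and 1.59 ± 0.28 in 77x85, with adjusted p = 0.00123, 0.00526 and 0.00934. For BomS4 they were -3.05, -2.97 and -2.59 in the same order, with adjusted p = 2.69e-05, 5.6e-05 and 2.89e-04, and for CG17108 they were -1.49, -1.45 and -1.60, with adjusted p = 0.002, 0.00526 and 0.00125. For CG17108, however, the lowest of the 7 crosses had a mean of 12.10, below the 12.31 of 61x77. Directly against 43x61 and 77x85, 61x77 differed by 0.23 ± 0.32 for Acp26Ab and -0.27 for BomS4 (adjusted p = 0.996 each).

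**Figure D5:**
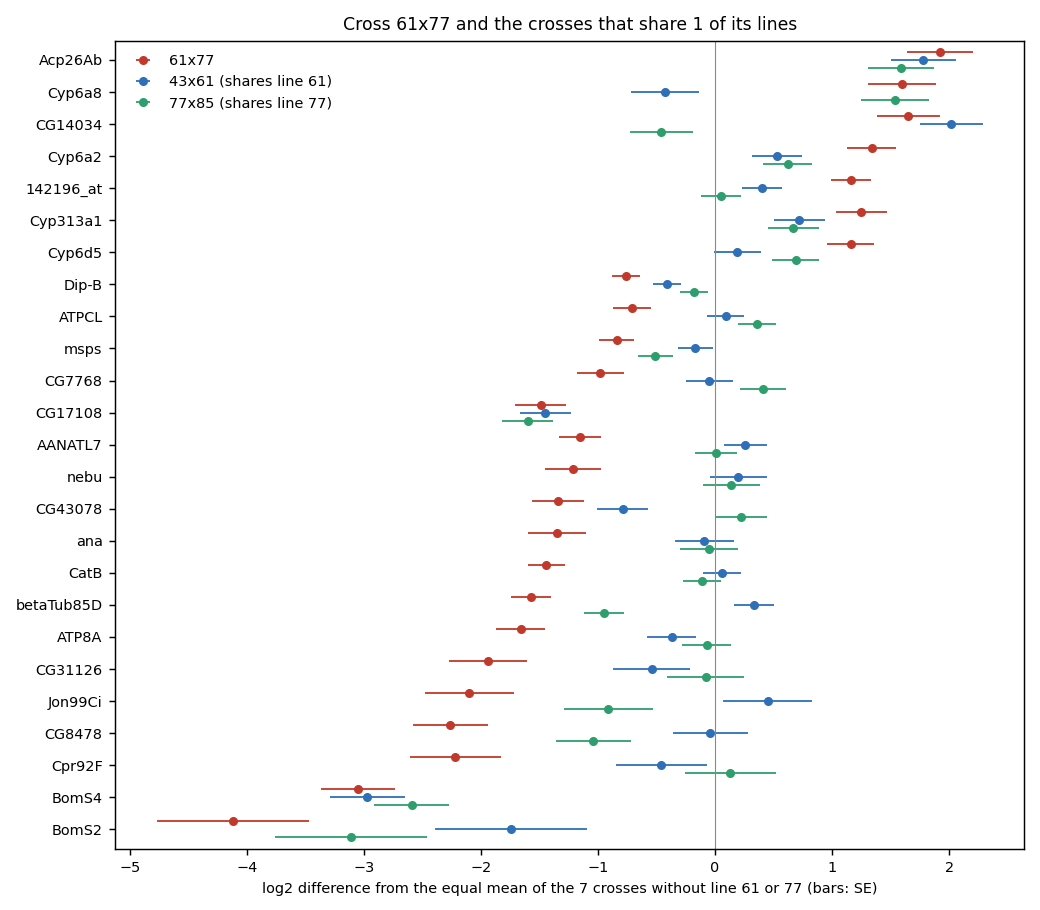
Difference from the equal mean of the 7 crosses without line 61 or 77 (x axis, log2 scale, bars show the standard error) for cross 61x77 (red), 43x61 (blue) and 77x85 (green), at each of the 25 features called in 61x77 (y axis). The 3 crosses stand together for Acp26Ab, BomS4 and CG17108, and 61x77 stands apart from both for CatB, ATP8A and AANATL7.

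At other genes the values of 43x61 and 77x85 lay apart. Cyp6a8 was higher in 61x77 (1.60, adjusted p = 0.00991) and in 77x85 (adjusted p = 0.0192, mean 12.30), whereas 43x61 had a mean of 10.34 (adjusted p = 0.957). CG14034 was higher in 61x77 (1.65, adjusted p = 0.00487) and in 43x61 (adjusted p = 0.00153, mean 11.70), whereas 77x85 had a mean of 9.22 (adjusted p = 0.804). betaTub85D was lower in 61x77 (-1.57, adjusted p = 2.69e-05) and in 77x85 (adjusted p = 0.00971, mean 8.77), whereas 43x61 had a mean of 10.05 (adjusted p = 0.829), within the range of 9.13 to 10.25 of the other 7 crosses. BomS2 was low in all 3 crosses, with -4.12 in 61x77 (adjusted p = 0.00278), -3.11 ± 0.65 in 77x85 (adjusted p = 0.0481) and -1.74 ± 0.65 in 43x61, which did not pass (adjusted p = 0.567) but whose mean, 6.79, was below the lowest of the 7 crosses, 7.57. Other means of 43x61 or 77x85 lay beyond all 7 crosses without passing. In 77x85 these were CG8478 (mean 7.20, lowest of the 7 crosses 7.97), msps (10.24, 10.61) and Jon99Ci (7.68, 8.05). In 43x61 they were CG43078 (7.64, 7.76), Dip-B (10.04, 10.21), CG31126 (8.40, 8.62) and Cpr92F (8.50, 8.54). On the higher side, Cyp6d5 had 13.46 in 77x85 (highest of the 7 crosses 13.25). Cyp313a1 had 10.86 in 43x61 and 10.81 in 77x85 (10.64). The differences between 43x61 and 77x85 themselves were not tested.

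The position of the genes could be followed on part of chromosome arm 2L, with the gene order of D. melanogaster. It placed 1613 features, out of 12367 in all, of which 25 were called (0.202%). The called genes on this part of 2L were 4, CG14034, Acp26Ab, CatB and CG17108. No 2 of them were next to each other. Their measured neighbours on both sides had adjusted p-values of 0.898 or more, with differences between -0.65 (Acp26Aa, dim in all crosses) and 0.28 (raw, next to CatB). The other chromosome arms were not analysed here.

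The lists for other tissues and functions gave no call in 61x77. They were yolk and eggshell genes (29 measured, median difference -0.10), Turandot and heat shock genes (18, 0.10), pigmentation genes (33, 0.06), odorant binding proteins and chemoreceptors (166, 0.04), clock genes (12, 0.13), phototransduction genes (23, 0.09), muscle genes (22, 0.00), fat body genes (21, -0.08), cytoplasmic ribosomal proteins (38, 0.12) and respiratory chain subunits (76, -0.07). The members with the highest mean signal are given for each list, and none passed, which does not show them to be equal. In the heat shock list, Hsc70-4 (a constitutive chaperone) differed by -0.10 ± 0.18 and its partner DnaJ-1 by 0.07 ± 0.21. Among odorant binding proteins, Obp44a and Obp99c differed by -0.04 ± 0.14 and 0.45 ± 0.21. The clock genes tim and Pdp1 differed by 0.10 ± 0.20 and 0.03 ± 0.24, and the visual arrestins Arr2 and Arr1 by -0.09 ± 0.17 and 0.17 ± 0.19.

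For muscle, the actin gene Act87E, whose probe set is also marked as matching several genes, differed by 0.05 ± 0.14. The myosin light chain gene Mlc2 stood at the top of the normalized scale in 61x77 (15.86, 16.02 and 15.86) and elsewhere (median and highest 16.02). At that level a difference could not be read. In metabolism, Pepck1 (gluconeogenesis) and FASN1 (fatty acid synthase) differed by 0.33 ± 0.35 and -0.08 ± 0.16, and UQCR-Q (a subunit of respiratory complex III) and blw (a subunit of the ATP synthase) by -0.07 ± 0.13 and -0.25 ± 0.22. The ribosomal protein genes RpS20 and RpL10Ab differed by 0.26 ± 0.12 and 0.07 ± 0.15, the pigment synthesis genes Ddc and Pu by -0.28 ± 0.19 and -0.42 ± 0.30, and the eggshell and oocyte genes Cp18 and grk by -0.17 ± 0.17 and 0.11 ± 0.23. None of these 20 genes (Mlc2 included) passed, and their adjusted p-values were 0.68 or more.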

How the data were processed

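The authors hybridised biotin-labelled RNA to Drosophila 1.0 Affymetrix GeneChip arrays, whose probes were designed on D. melanogaster, and summarised them with MAS5. The deposited intensity values are linear signals for 14010 probe sets, scaled by the authors to a trimmed mean of 500 on each array. No probe mask is applied in them, and the effect of sequence differences between lines on the probes was not tested. Arrays have no read depth, and their number limits the precision.

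Values below 1 were set to 1 (15 values on the 29 arrays), log2 values were taken, and the 29 arrays, whose medians were 7.58 to 7.98, were quantile normalized. The 44 controls were left out. Of the probe sets, 12444 carry 1 gene symbol, 327 several and 1239 none, from the platform annotation. Where several probe sets stood for a gene (1209 genes), only the brightest on average entered the fit, giving 12367 features, and 10844 of these have 1 gene name. The cross groups were fitted in limma 3.58.1 (R 4.3.3) with lmFit and eBayes, and the contrasts were tested two-sided. On simulated data of this comparison (12367 features), 25 of 100 shifts of 1 and 75 of 100 shifts of 2 were recovered, and 5 of 12167 unchanged features were called. The simulated noise was independent for each array. It held no effect shared by the arrays of a cross, so these counts do not cover such effects.

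Named were the 12 highest and 12 lowest called genes, up to 3 called members of each of 18 lists (otherwise the 2 with the highest mean signal), Cyp4ac1 and Cyp4ac2, and called genes next to another called gene. The members, lists and tests were chosen with earlier results of these data known. Calls by chromosome arm could be made for part of 2L only. The alternatives varied the normalization, pseudocount, filter, fit and arrays.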

Additional observations from a re-analysis of the deposited data

Results flagged for a closer look

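The array labelled 37x43 replicate 3, which was left out of the comparisons, carried a signal that the other arrays did not. On it, 14 of 17 yolk, eggshell and oocyte markers were above their level on all of the other 29 arrays, and the 17 averaged 11.04 on the log2 scale, against 6.57 to 7.45 on the others. With this array included, 61x77 had 7 higher and 17 lower calls, and 22 of the 25 calls remained.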

How the results depend on the processing

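The 25 calls kept their direction in all 40 alternative settings, and betaTub85D, BomS4 and CatB passed in all of them. AANATL7 and ATP8A failed in 1 setting, the fit of all 48 arrays over 16 groups. That fit gave 1 higher and 5 lower calls, 9 against the 7 crosses and 1 against 43x61 and 77x85, and 6 of the 25 calls remained, none of them a P450 gene. Testing only the 7420 features above the 40th percentile of mean signal gave 59 calls against the 7 crosses and 13 against 43x61 and 77x85, and limma array weights gave 51 and 11. The eBayes fit with trend and robust options gave 12 higher and 29 lower calls, with 58 and 10. Without crosses 6x11 and 99x105, a setting chosen after seeing the data, there were 12 higher and 41 lower calls, with 69 and 9. The cause was not tested. Leaving out each of the 29 arrays in turn gave 1 to 10 higher and 8 to 25 lower calls, 17 to 43 against the 7 crosses and 1 to 13 against 43x61 and 77x85. Without replicates 1, 2 and 3 of 61x77 there were 1, 2 and 3 higher and 8, 9 and 21 lower calls, and 8, 11 and 11 of the 25 remained. ATPCL passed in 21 settings, with adjusted p between 0.0071 and 0.601. Replicate numbers did not pair the arrays. Deviations from the cross means correlated at 0.00528 on average for arrays of the same number (126 pairs) and at -0.0026 for others, and with the replicate block there were 7 higher and 19 lower calls, 28 against the 7 crosses and 4 against 43x61 and 77x85, with all 25 in common. With 3 arrays in the cross, changes of 2-fold were mostly below what the simulated data recovered, and a feature without a call is not shown to be equal.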
